A study of Homo sapiens with 6 samples.

Results

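The genes described here encode the proteins that phosphorylate, form, recharge and dephosphorylate eukaryotic initiation factor 2 (eIF2), measured in U251 cells with and without sevoflurane (Sev). The set holds 10 genes chosen by symbol and found in the deposited tables by Ensembl identifier, out of 61496 features. They are the kinases EIF2AK1, EIF2AK2, EIF2AK3 and EIF2AK4, the eIF2 subunits EIF2S1, EIF2S2 and EIF2S3, the exchange factor subunit EIF2B5, the phosphatase cofactor PPP1R15B, and EIF2A. U251 is an established human glioma line, and Sev is an inhaled anesthetic. The study sequenced ribosomal RNA-depleted total RNA from 3 control libraries, from untreated cells, and 3 Sev libraries, from cells kept in the gas for 2 h. No label of the 6 names a genetic change or a second agent. The protocol gives Sev at 1.7%, 3.4% or 5.1%, and no library label carries a concentration. In the paper, the caption on the sequencing names the highest. No label says that the libraries of a group came from separate cultures, so p-values measure the spread between these libraries, which may be technical.

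eIF2 is a complex of alpha, beta and gamma subunits that carries the initiator methionyl-tRNA to the ribosome. Phosphorylation of its alpha subunit by any of the 4 kinases turns eIF2 into an inhibitor of its exchange factor eIF2B, which lowers general translation while mRNAs with upstream open reading frames, such as ATF4, are translated more. A complex of protein phosphatase 1 with PPP1R15A or PPP1R15B removes the phosphate. This circuit is the integrated stress response, and ATF4 is its best-known effector. The libraries measured mRNA only, so kinase activity and the phosphorylation of eIF2 were not observed. In such bulk samples, fewer cells that express a gene and less of its RNA per cell cannot be told apart.

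The libraries held between 38624292 and 46318311 counts. All 10 genes passed the expression filter, with at least 1071 counts in each library. The first principal component of the more abundant features held 71.9% of the variance and separated the groups. Within a group, 50.5% to 68.0% of 13668 abundant genes differed between a pair of libraries beyond sampling noise (chi-square test per gene), so no library was another one deposited again, which does not show that they came from separate cultures. Glioma markers were present, with 7355 to 8302 CPM (counts scaled to a common library total after TMM normalization) summed over VIM, NES, S100B, GFAP, SOX9 and SOX2 in control libraries and 7997 to 8521 CPM in Sev libraries. VIM alone held 5123 to 6497 CPM of this sum. SOX2 was lower in Sev libraries, at 164 to 184 CPM against 280.3 to 294 CPM in control libraries, and so was S100B, at 10.1 to 10.6 CPM against 18.3 to 28.5 CPM, with the groups apart for both. Markers of neurons, oligodendrocytes, leukocytes, endothelium and epithelium, 3 for each type, summed to at most 24.9 CPM. The neuronal and leukocyte sums were higher in Sev libraries, each through a single gene. SYT1 went from 13.3 to 13.9 CPM in control libraries to 18.5 to 21.5 CPM in Sev libraries, while the other neuronal markers, RBFOX3 and SNAP25, overlapped between the groups. CSF1R was at 3.69 to 3.93 CPM and 5.30 to 8.09 CPM, while PTPRC overlapped and AIF1 was at 0 in every library. MBP, of oligodendrocytes, went from 2.37 to 2.74 CPM in control libraries to 3.86 to 6.08 CPM in Sev libraries, and PECAM1, of endothelium, from 0.496 to 0.984 CPM to 1.16 to 1.46 CPM, while the remaining 2 markers of each type overlapped. The part of these marker levels in the results was not tested.

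In Sev-treated cells, 4 of the 10 genes were higher and none of the 10 was lower, with a Benjamini-Hochberg adjusted p-value under 0.05 over 27514 tested features (edgeR's quasi-likelihood test). The genes that rose were EIF2S1, PPP1R15B, EIF2S2 and EIF2AK2. Of all tested features, 22.1% were higher and 21.5% were lower, which is 6094 and 5920 features. Scaled by library totals in place of TMM, the split was 4665 and 7502, and on log2(FPKM + 1) it was 3584 and 6726 (limma). For protein-coding genes the shares were 25% and 21%. For protein-coding genes whose mean level lay between those of the least and the most abundant of the 10, they were 31.7% and 17.5%. The share of the 10 that rose was thus near that of genes of like abundance, and what follows is a description of single genes. At an unadjusted p under 0.05 the counts of the 10 were again 4 and 0. None passed the study's limit of a log2 fold change over 1 in size with an unadjusted p under 0.05, which 23.5% of all tested features passed. The groups did not overlap for 4 of the 10 genes, against 56.5% of all tested features. The median log2 fold change of the 10 was 0.050, beside -0.0056 for all tested features. It was 0.038 for protein-coding genes and 0.11 for those in the abundance range of the 10. The median of the 10 ran from 0.014 to 0.082 when single libraries were left out. With library totals in place of TMM it was -0.089, beside -0.15 for all tested features.

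**Figure D1:**
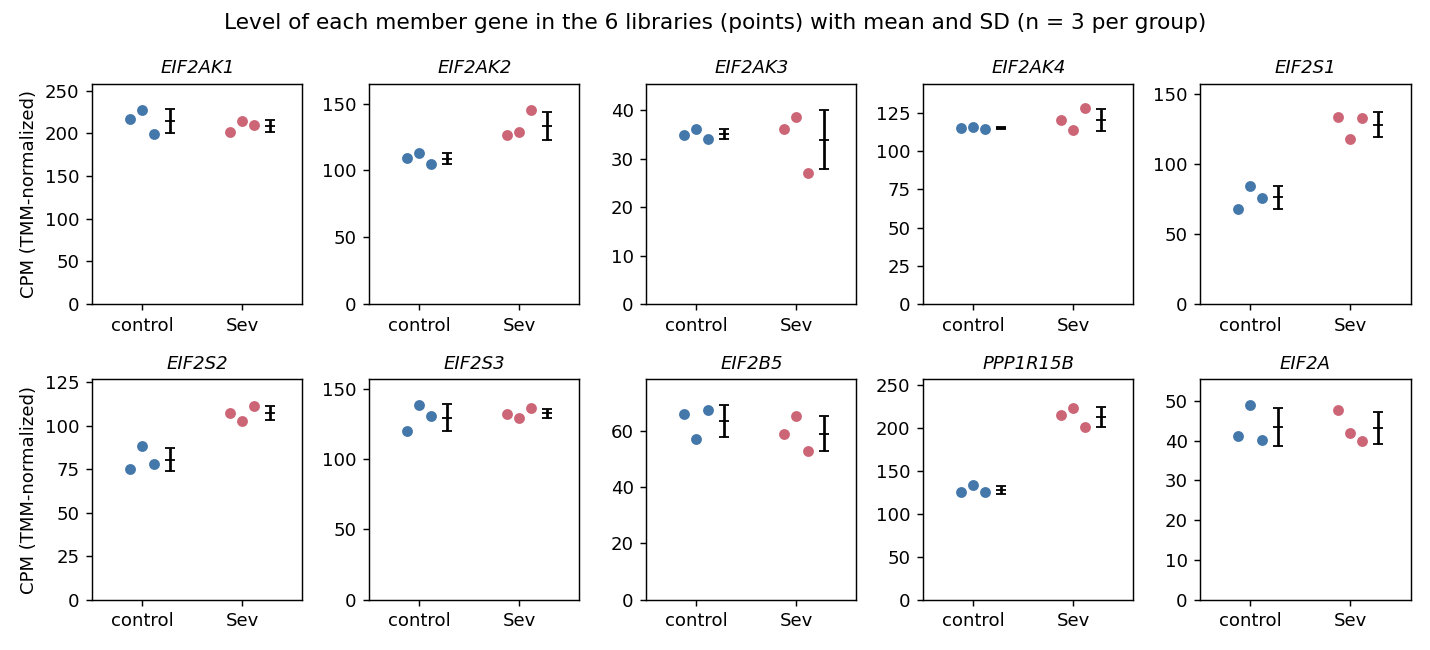
Level of each of the 10 genes in TMM-normalized CPM (vertical axes, starting at 0) in the 3 control (blue) and 3 Sev (red) libraries, with the mean and SD in black. Control and Sev points are fully apart for EIF2AK2, EIF2S1, EIF2S2 and PPP1R15B, and they interleave for the other 6 genes.

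Promoter sequence is shown for the genes that rose most, EIF2S1 and PPP1R15B, and for PPP1R15A, the second cofactor of the same phosphatase. The bases come from RefSeq (GRCh38.p14), which held an entry for 8 of the 10 genes. The 250 bases before each start were searched on both strands for the letters TGATGCAA, TGACGTCA and GCGCANGCG. The first is the core of the C/EBP-ATF response element through which ATF4 acts, the second is the cyclic AMP response element, and the third is the core of the palindrome bound by NRF-1. Among these 8, PPP1R15B alone held the first set of letters, which 0.772% of 35116 promoters hold. Among the other 53 pathway genes with an entry, CHAC1 alone held it. The PPP1R15B promoter is given in full, 5′ to 3′ on the minus strand at chr1:204411818-204412067, with the match in capitals 227 to 220 bases before the start.

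PPP1R15B: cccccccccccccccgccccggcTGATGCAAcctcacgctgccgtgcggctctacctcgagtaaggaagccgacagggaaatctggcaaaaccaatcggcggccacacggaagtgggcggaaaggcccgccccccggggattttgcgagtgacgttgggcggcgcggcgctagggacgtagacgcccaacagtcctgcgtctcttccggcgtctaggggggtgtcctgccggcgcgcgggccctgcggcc

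The PPP1R15A promoter held the second set of letters, which 1.65% of promoters hold, 58 to 51 bases before the start, and none of the 8 searched genes of the set held it. The EIF2S1 promoter held the third set at 26 to 18 and at 21 to 13 bases before the start, on opposite strands and overlapping. This start is the one RefSeq gives, at 67360328, and GENCODE 29 begins the gene further upstream, at 67359997, so the bases shown lie inside the gene as GENCODE bounds it. These letters occur in 6.56% of promoters, and also in those of EIF2B5 and EIF2A, which did not pass the test. Among the other 53 pathway genes with an entry, 8 held them. These include EIF1, which rose, OMA1 and PPP1CB, which fell, and EIF2B3, which did not pass. Each is shown as 30 bases of the plus strand with the matches in capitals, PPP1R15A at chr19:48872352-48872381 and EIF2S1 at chr14:67360291-67360320. A match is a run of letters and not a measured binding site.

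PPP1R15A: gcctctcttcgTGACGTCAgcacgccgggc
EIF2S1: tattcgttcagCGCTTGCGCATGCGaggag

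Among the subunits of eIF2, the mRNAs of alpha and beta rose and that of gamma did not pass the test. EIF2S1 (ENSG00000134001, chromosome 14, 67359997 to 67386516, GRCh38, plus strand) encodes the alpha subunit, which carries the phosphorylated serine. Its level was 67.9, 84.4 and 75.7 CPM in the control libraries and 133, 118 and 133 CPM in the Sev libraries. Every Sev library lay above every control library. The mean went from 76.0 ± 8.27 CPM to 128 ± 8.88 CPM (SD, n = 3 each), a fold change of 1.68. On the log2 scale this was an increase of 0.75 with an SE of 0.10 (adjusted p = 0.00109 edgeR's quasi-likelihood test, Benjamini-Hochberg adjusted over all tested features as for every p credited to edgeR here). It kept its call in all 15 alternative fits, with an adjusted p of at most 0.0125.

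EIF2S2 (ENSG00000125977, chromosome 20, 34088298 to 34112332, minus strand) encodes the beta subunit, which helps to bind the initiator tRNA and the GTPase-activating factor eIF5. It was at 75.2, 88.2 and 78.3 CPM in control libraries and at 107, 103 and 111 CPM in Sev libraries. The groups were again apart, by a smaller margin than for EIF2S1. It rose by 0.41 on the log2 scale with an SE of 0.087 (adjusted p = 0.0069, edgeR). The call was lost in the 3 fits on the deposited FPKM, which are not TMM-normalized, with adjusted p from 0.0509 to 0.0864 (limma). EIF2S2 lies opposite RALY over 20011 bases, and GENCODE 29 gives their exons no base in common. RALY held 4118 to 6067 counts and was itself higher in Sev libraries, by 0.50 on the log2 scale (adjusted p = 0.00303, edgeR), and any part of its unspliced RNA in the EIF2S2 counts was not tested. Its 7 processed copies held 3.54% of the counts summed over EIF2S2 and the copies.

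EIF2S3 (ENSG00000130741, chromosome X, 24054716 to 24077971, plus strand) encodes the gamma subunit, which binds GTP and the tRNA. Its level was 119.6, 138 and 130.3 CPM in control libraries and 132, 129.5 and 136 CPM in Sev libraries. The groups overlapped, and all 3 Sev values lay within the control range. EIF2S3 had a log2 fold change of 0.033 with a 95% interval from -0.15 to 0.22 (adjusted p = 0.767, edgeR). With library totals alone in place of TMM it was -0.11. The retrocopy EIF2S3B, of whose 50-base windows 26.8% occur in EIF2S3, held 2.58% of their joint counts.

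The 3 subunits can also be set against each other within a library, where no scaling between libraries enters. For each count of EIF2S1 there were 1.76, 1.64 and 1.72 counts of EIF2S3 in the control libraries and 0.989, 1.10 and 1.02 in the Sev libraries. The log2 ratio fell by 0.72, without overlap between the groups. The ratio of EIF2S2 to EIF2S1 was 1.11, 1.04 and 1.03 in control libraries and 0.806, 0.875 and 0.837 in Sev libraries, and its log2 value fell by 0.34. With 3 libraries in each group, 0.1 is the smallest p that permutations allow, and both ratios were at that value (two-sided exact permutation p = 0.1, adjusted p = 0.113 over 9 ratios). Alpha was thus higher relative to both beta and gamma in every Sev library than in any control library, in a comparison too small to pass 0.05.

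Per length, in the deposited FPKM, EIF2S1 made up 18.4% ± 0.50 of the summed FPKM of the 3 subunits in control libraries and 24.4% ± 0.866 in Sev libraries (SD, n = 3 each). The share of EIF2S3 was 40.9% ± 0.666 in control libraries and 33.0% ± 0.640 in Sev libraries. EIF2S2 held 40.7% ± 0.675 and 42.6% ± 0.276. The alpha mRNA was therefore the least abundant of the 3 per length in both groups. These 3 shares, and the 4 kinase shares given below, were tested together, and none of the 7 passed (exact permutation tests, adjusted p from 0.14 to 1).

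**Figure D2:**
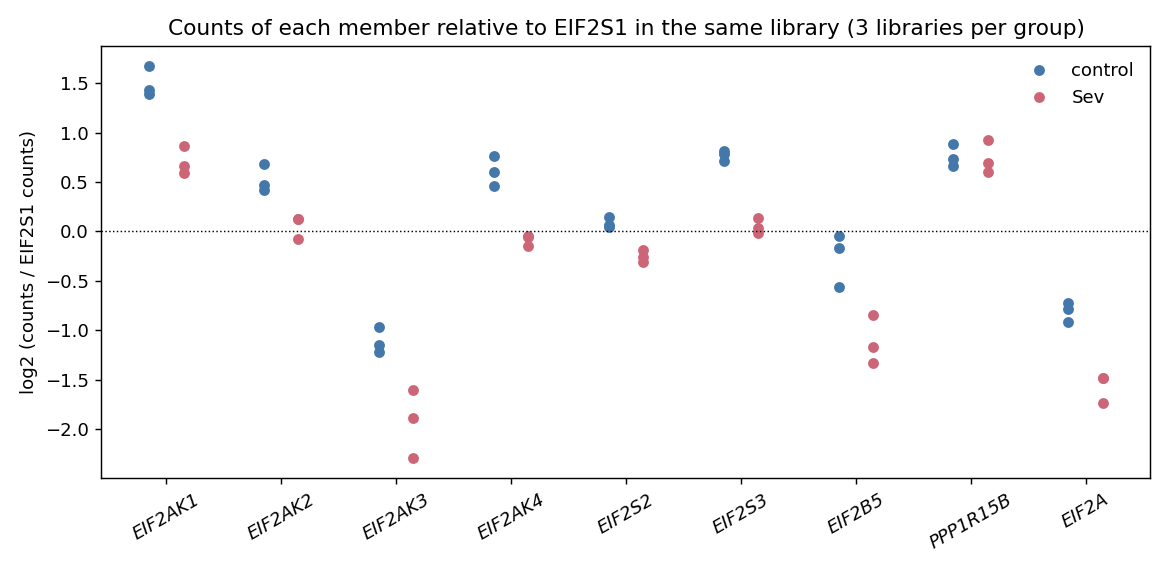
Log2 ratio of the counts of each gene to those of EIF2S1 in the same library (vertical axis), with 3 control (blue) and 3 Sev (red) libraries for each gene. Sev points lie below control points for 8 genes, and the points of PPP1R15B interleave. EIF2S1, the divisor, itself rose by 0.75 on the log2 scale, so a lower ratio does not mean that the gene fell.

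The constitutive phosphatase cofactor also rose. PPP1R15B (ENSG00000158615, chromosome 1, 204403387 to 204411791, minus strand), also called CReP, is the partner that directs protein phosphatase 1 to eIF2. It was at 125, 133 and 126 CPM in control libraries and at 215, 223 and 201 CPM in Sev libraries. The groups were far apart against their spread, with means of 128 ± 4.52 and 213 ± 11.3 CPM (SD, n = 3 each). This was a 1.66-fold rise, or 0.73 on the log2 scale with an SE of 0.076 (adjusted p = 0.000361, edgeR). The adjusted p stayed at or under 0.00366 in the 15 alternative fits. Relative to EIF2S1, PPP1R15B was at 1.85, 1.58 and 1.66 counts per count in control libraries and 1.61, 1.90 and 1.51 in Sev libraries, which overlapped (log2 difference -0.020, exact permutation p = 0.9).

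PPP1R15A, the stress-inducible cofactor also called GADD34, was at 146, 122 and 120.1 CPM in control libraries and 194, 287 and 185 CPM in Sev libraries. It rose by 0.78 on the log2 scale with an SE of 0.17 (adjusted p = 0.00867, edgeR). Without Sev replicate 2, the highest library, it was 0.56 and still called. The call was lost in 1 of 15 alternatives, on log2(FPKM + 1) without a filter (adjusted p = 0.0669, limma). The catalytic subunits of protein phosphatase 1 moved in both directions. PPP1CC went from 102 ± 8.10 to 150 ± 9.54 CPM (adjusted p = 0.00216, edgeR). PPP1CB, the most abundant of them, fell from 1168 ± 3.8 to 974 ± 31.7 CPM (log2 fold change -0.26, adjusted p = 0.0243, edgeR), a call lost without control replicate 3 or Sev replicate 1. Of the 4 genes in this list, 3 rose and 1 fell, with a median log2 fold change of 0.49, beside 22.1% higher and 21.5% lower of all tested features.

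Of the 4 kinases, 1 rose and 3 did not pass the test, beside 22.1% higher and 21.5% lower of all tested features. EIF2AK2 (ENSG00000055332, chromosome 2, 37099210 to 37157065, minus strand) encodes PKR, the kinase that senses double-stranded RNA and is induced by interferon. It was at 109, 113 and 105 CPM in control libraries and at 126, 129 and 145 CPM in Sev libraries. The Sev libraries lay above the control libraries by a narrow margin. The rise was 0.29 on the log2 scale with an SE of 0.084 (adjusted p = 0.0234, edgeR). Its call depended on single libraries, since leaving out control replicate 1, control replicate 3 and Sev replicate 3 in turn gave adjusted p = 0.0607, 0.10 and 0.0650 (edgeR). It was lost with library totals in place of TMM as well, where the log2 fold change was 0.15 (adjusted p = 0.215, edgeR).

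EIF2AK1 (ENSG00000086232, chromosome 7, 6022244 to 6059230, minus strand) encodes HRI, which responds to heme shortage and relays mitochondrial stress. It was at 217, 228 and 199 CPM in control libraries and at 201, 214 and 210.0 CPM in Sev libraries. These ranges overlapped, and the log2 fold change was -0.041 (95% interval -0.22 to 0.14, adjusted p = 0.703, edgeR). EIF2AK4 (ENSG00000128829, chromosome 15, 39934146 to 40035591, plus strand) encodes GCN2, which senses uncharged tRNA and stalled ribosomes. It was at 115, 116 and 115 CPM in control libraries and at 120.2, 114 and 128 CPM in Sev libraries, with a log2 fold change of 0.067 (95% interval -0.11 to 0.24, adjusted p = 0.503, edgeR). Among the Sev libraries, 1 lay below all 3 control libraries and the other two lay above them.

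EIF2AK3 (ENSG00000172071, chromosome 2, 88556741 to 88627576, minus strand) encodes PERK, the kinase in the membrane of the endoplasmic reticulum that responds to unfolded proteins. It was at 34.8, 36.2 and 34.2 CPM in control libraries and at 36.1, 38.62 and 27.0 CPM in Sev libraries. Sev replicate 3 was the lowest of the 6 libraries, Sev replicate 2 was the highest, and Sev replicate 1 lay within the control range. EIF2AK3 had a log2 fold change of -0.049 (95% interval -0.36 to 0.27, adjusted p = 0.797, edgeR), and without Sev replicate 3 it was 0.093 (adjusted p = 0.476, edgeR).

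Per length, the kinases were of unequal abundance, and the order was the same in both groups. EIF2AK1 was highest, with 33.3 ± 2.20 FPKM in control libraries and 29.3 ± 1.10 FPKM in Sev libraries (SD, n = 3 each). EIF2AK2 and EIF2AK4 overlapped in control libraries at 8.61 ± 0.321 and 8.20 ± 0.168 FPKM. EIF2AK3 was lowest at 5.46 ± 0.137 FPKM. Of the summed FPKM of the 4 kinases, EIF2AK1 held 59.9% ± 1.09 in control libraries and 57.0% ± 0.746 in Sev libraries, and EIF2AK2 held 15.5% ± 0.195 and 18.6% ± 1.26. The shares of EIF2AK3 and EIF2AK4 overlapped between the groups. The log2 ratios of the 4 kinases to EIF2S1 fell by 0.46 for EIF2AK2 and by 0.69 to 0.82 for the others, without overlap (exact permutation p = 0.1 for each). EIF2S1, the divisor, itself rose by 0.75 on the log2 scale, so the ratio of an unchanged gene falls by about that much. The falls restate this rise and do not show lower kinase mRNA, and EIF2AK2 itself rose by 0.29. These ratios share the EIF2S1 counts, so they are not independent of each other.

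Of 9 genes that act on the kinases, 4 rose and 2 fell, with a median log2 fold change of 0.043. Of all tested features, 22.1% were higher and 21.5% were lower. No test of the list was run, and these counts are not read as a trait of it. HSPA5, the chaperone that keeps PERK inactive, rose from 428 ± 20.1 to 755 ± 34.6 CPM (SD, n = 3 each, log2 fold change 0.82, adjusted p = 0.000298, edgeR). DNAJC3, a co-chaperone known as an inhibitor of PKR and PERK, rose from 68.5 ± 4.74 CPM in control libraries, by 0.68 on the log2 scale (adjusted p = 0.000954, edgeR). OMA1, the mitochondrial protease that cleaves DELE1 in the relay to HRI, was at 10.97, 10.4 and 11.7 CPM in control libraries and at 2.34, 3.99 and 3.08 CPM in Sev libraries. It fell by 1.81 on the log2 scale with an SE of 0.20 (adjusted p = 0.000501, edgeR), and its groups were far apart. It held 88 counts in its lowest library, and it overlaps DAB1 on the same strand with 257 exonic bases in common. DELE1 itself had a log2 fold change of -0.12 (adjusted p = 0.237, edgeR). IMPACT, an inhibitor of GCN2, fell from 3.72 ± 0.391 to 2.50 ± 0.354 CPM, a call that was lost whichever library was left out (adjusted p = 0.0516 to 0.0989, edgeR).

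The exchange factor eIF2B reloads eIF2 with GTP, and 1 of its 5 subunit mRNAs passed the test. Of all tested features, 43.7% passed in either direction. EIF2B5 (ENSG00000145191, chromosome 3, 184135038 to 184146112, plus strand) encodes its catalytic epsilon subunit. Its mRNA was at 65.9, 57.2 and 67.6 CPM in control libraries and at 59.1, 65.3 and 52.9 CPM in Sev libraries. The groups overlapped, and the log2 fold change was -0.11 (95% interval -0.36 to 0.14, adjusted p = 0.461, edgeR). Relative to EIF2S1 it was at 0.971, 0.677 and 0.892 counts per count in control libraries and 0.443, 0.555 and 0.399 in Sev libraries, apart in every library (log2 difference -0.86, exact permutation p = 0.1). EIF2S1, the divisor, rose by 0.75 on the log2 scale, so this ratio does not show lower EIF2B5 mRNA. The other subunits EIF2B2, EIF2B3 and EIF2B4 had log2 fold changes of -0.20, -0.016 and -0.13 and did not pass the test. EIF2B2 was called lower in 4 of 15 alternatives, at -0.34 with library totals (adjusted p = 0.0292, edgeR) and in the 3 FPKM fits (adjusted p = 0.0347 to 0.0499, limma). EIF2B1, the regulatory alpha subunit, rose from 45.9 ± 0.929 to 54.0 ± 2.20 CPM (log2 fold change 0.23, adjusted p = 0.0431, edgeR), and this call was lost whichever library was left out (adjusted p = 0.0516 to 0.121, edgeR) and in 6 other alternatives, which include those 4, no expression filter (adjusted p = 0.0920, edgeR) and the replicate block. CDC123, a chaperone that helps to assemble eIF2, had a log2 fold change of 0.52 (adjusted p = 0.0243, edgeR), lost in 4 of the 6 fits without a library: control replicate 1 or 3 and Sev replicate 1 or 3.

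EIF2A (ENSG00000144895, chromosome 3, 150546678 to 150584242, plus strand) encodes a single-chain protein that is not a subunit of eIF2 and can bring initiator tRNA to the ribosome without GTP. It was at 41.2, 49.0 and 40.2 CPM in control libraries and at 47.6, 42.0 and 39.9 CPM in Sev libraries. The values interleaved, and the log2 fold change was -0.010 (95% interval -0.27 to 0.25, adjusted p = 0.951, edgeR). It lies opposite SERP1, with 153 of its 4131 exonic bases in common. The libraries were made with strand-specific adapters, but whether the counting used strand was not stated, so it is not known on which gene reads there were counted. The same holds for the 781 exonic bases that EIF2AK3 shares with the antisense gene AC104134.1, which held 25 to 73 counts, for the 401 of EIF2AK2 with the pseudogene AC007899.1, for the 532 exonic bases that EIF2AK1 shares with AIMP2 and for the 269 exonic bases, of 5651, that EIF2S1 shares with ATP6V1D, whose own log2 fold change was -0.10 (adjusted p = 0.520, edgeR).

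**Figure D3:**
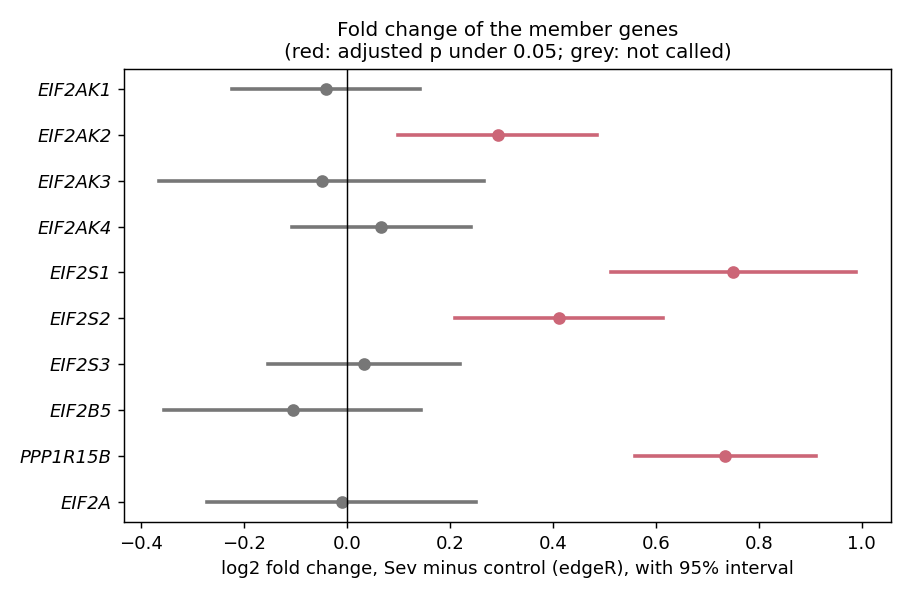
Log2 fold change, Sev minus control, of the 10 genes from edgeR (horizontal axis) with 95% intervals as lines. The 4 intervals in red, from EIF2AK2 at 0.29 to EIF2S1 at 0.75, lie above 0, and the 6 in grey cross it.

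Set in order by control FPKM, the 10 genes ran from EIF2AK1 to EIF2AK3 over a range of 6.09-fold. EIF2S3 at 27.0 ± 1.43 FPKM and EIF2S2 at 26.8 ± 1.77 FPKM came next and overlapped. PPP1R15B followed at 20.7 ± 0.464 FPKM and EIF2S1 at 12.1 ± 1.08 FPKM, each apart from its neighbours. EIF2B5 and EIF2A overlapped at 7.50 ± 0.768 and 6.26 ± 0.603 FPKM. In Sev libraries EIF2S2 was at 32.4 ± 2.33 FPKM, PPP1R15B at 31.1 ± 0.653 FPKM and EIF2S1 at 18.5 ± 1.83 FPKM. EIF2S3 was at 25.0 ± 1.46 FPKM there, below both EIF2S2 and PPP1R15B.

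Other initiation factors gave context for these changes. Of 13 subunits of eIF3, the scaffold that recruits the ribosome to mRNA, 9 rose and none fell, with a median log2 fold change of 0.44, where 22.1% of all tested features and 31.7% of protein-coding genes in the abundance range of the 10 were higher. EIF3B rose most, from 211 ± 25.6 to 369 ± 10.8 CPM (log2 fold change 0.80, adjusted p = 0.000712, edgeR). EIF3J, a loosely bound subunit, had 0.71, a call that was lost when any single control library was left out. Its Sev values were 35.9, 31.6 and 58.1 CPM, and without Sev replicate 3 the log2 fold change was 0.40. Among 12 genes of the eIF4 group and EIF6, 6 rose and 1 fell, the RNA helicase EIF4A2, which went from 220.0 ± 15.8 to 139 ± 3.63 CPM (log2 fold change -0.66, adjusted p = 0.000658, edgeR). Of 8 factors that work beside eIF2 in start codon choice and tRNA delivery, 2 rose and 1 fell. For so few genes this is near the shares of all tested features, 22.1% higher and 21.5% lower. EIF1, which guards start codon selection, rose from 302 ± 3.49 to 564 ± 11.2 CPM (log2 fold change 0.90, adjusted p = 0.000131, edgeR). EIF1AX had 0.53, a call lost in 4 of 6 fits without a library (control replicate 1 or 3, Sev replicate 1 or 3). MCTS1, which together with DENR promotes reinitiation, fell by 0.45 on the log2 scale (adjusted p = 0.016, edgeR), a call lost without control replicate 3.

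Among 9 genes controlled through eIF2 phosphorylation or ATF4, 7 rose and none fell, beside 22.1% higher and 21.5% lower of all tested features. ATF4 went from 179 ± 7.27 to 377 ± 31.1 CPM (log2 fold change 1.08) and DDIT3 from 14.0 ± 1.74 to 29.3 ± 1.22 CPM (log2 fold change 1.07). CHAC1 rose by 1.97 and SESN2 by 1.31 on the log2 scale (adjusted p of the 4 from 0.00013 to 0.000559, edgeR). ASNS and CEBPB did not pass, with log2 fold changes of 0.14 and 0.10. Among the kinases, subunits, EIF2A, EIF2B5 and PPP1R15B, the highest log2 fold change was the 0.75 of EIF2S1.

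**Figure D4:**
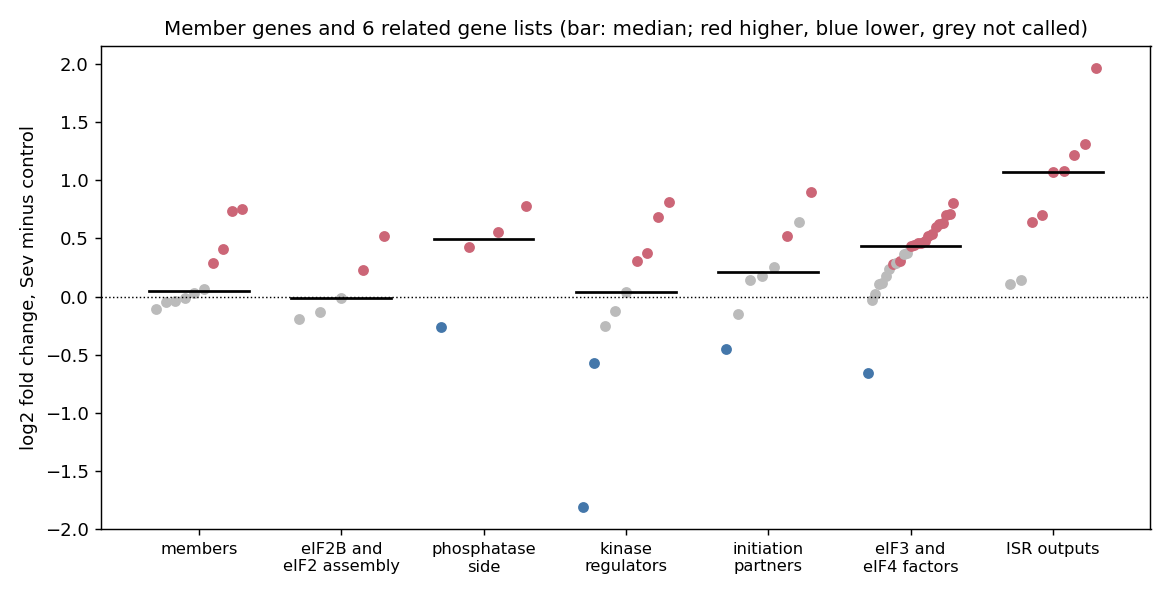
Log2 fold change, Sev minus control, of the 10 genes and of 60 genes in 6 related lists (vertical axis), each point a gene and each bar the median of its list. Red points were higher, blue lower and grey not called; medians run from -0.016 for eIF2B and eIF2 assembly to 1.07 for the outputs of the integrated stress response.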

How the data were processed

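Per the labels, bcl2fastq 2.19 and featureCounts were among the authors' tools and hg18 was named as the build, while the aligner and annotation are not given in the sources used here. The authors deposited raw counts per feature and library, and FPKM values for the same features. Positions came from GENCODE 29 (GRCh38), joined by Ensembl identifier, because no coordinates are in the tables. Counts were filtered with filterByExpr, TMM-normalized and tested in R 4.3.3 with edgeR 4.0.16 (glmQLFit, glmQLFTest, group only), 3 control against 3 Sev libraries. Higher or lower means a Benjamini-Hochberg adjusted p under 0.05 over 27514 features. Standard errors are the absolute log2 fold change over the square root of F, and intervals are 95%. Ratios used exact two-sided permutation tests over libraries.

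Library totals were 38624292 to 46318311 counts, and each group had 3 libraries. The alternatives were DESeq2 1.42.0 (size factors, Wald test), library totals alone, other filters, the replicate block, limma 3.58.1 on log2(FPKM + 1) or log2(FPKM + 0.1), and each library left out. The models were also run on simulated counts in which far fewer features changed than here, so that run does not test the scaling of these data. Genes named beside the 10 were the 2 with the largest called log2 fold change in each direction of each list, PPP1R15A, EIF2B1 to EIF2B4, ATF4, DDIT3, CHAC1, and copies and neighbours of the 10. DELE1, ASNS and CEBPB were named after their values were seen. The 10 genes, the lists and the promoter letters were chosen with earlier results of these data known, and the protein-coding backgrounds after the data were seen.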

Additional observations from a re-analysis of the deposited data

How the results depend on the processing

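EIF2S1 and PPP1R15B kept direction and call in all 15 alternative fits, and no alternative called any of the 10 genes lower. The 3 fits on FPKM called 2 of the 10 higher in place of 4. Library totals alone shifted the median of all tested features to -0.15, and log2(FPKM + 1) and log2(FPKM + 0.1) shifted it to -0.11 and -0.17. On these scales EIF2S1 was still at 0.61, 0.57 and 0.61. With library totals alone, 4665 features were higher and 7502 lower, in place of 6094 and 5920. The 2 filtered FPKM fits gave 3584 and 3269 higher, with 6726 and 6294 lower. The median of the 10 genes moved to -0.089 with library totals and to -0.087, -0.093 and -0.087 in the FPKM fits. EIF2AK4 turned to -0.073 with library totals and to -0.069, -0.077 and -0.069 with FPKM, and EIF2S3 to -0.11, -0.10, -0.11 and -0.10. EIF2A was 0.0047 with DESeq2's size factors and 0.0048 in its Wald test, and EIF2B3 was 0.00018 in the latter. None of these reversed values was called. Among other genes named as changed, the alternatives out of 15 that kept the call were 3 for EIF2B1, 5 for EIF1AX, 7 each for CDC123, IMPACT and EIF3J, 12 for PPP1CB and 14 each for PPP1R15A and MCTS1. The cause was not tested.

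Leaving out each library gave 4780 to 5709 features higher and 4438 to 5521 lower, and 3 to 4 of the 10 genes higher. The log2 fold change then ran from -0.086 to 0.077 for EIF2A, from -0.030 to 0.077 for EIF2S3, from -0.15 to 0.093 for EIF2AK3, from -0.098 to -0.0033 for EIF2AK1, from 0.024 to 0.11 for EIF2AK4, from -0.18 to -0.030 for EIF2B5 and from -0.12 to 0.050 for EIF2B3. The ratio of PPP1R15B to EIF2S1 ran from -0.11 to 0.049 on the log2 scale. Replicate numbers are shared by the groups, but deviations of same-numbered libraries correlated at -0.058, 0.039 and 0.086, so the numbers were not taken as pairs. With the replicate block, 5228 features were higher and 5021 lower, and 3 of the 10 were called, with EIF2AK2 at an adjusted p of 0.0627 (edgeR).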

Other observations

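Copies of the eIF2 subunit genes held few counts. The retrocopy EIF2S3B, which has 26.8% of its 50-base windows in common with EIF2S3, held 108, 90 and 104 counts in control libraries and 55, 217 and 276 in Sev libraries, so the Sev libraries lay on both sides of the controls. EIF2S2P2, with 2.04% of its windows in common with EIF2S2, held 15, 11 and 7 counts in control libraries and 0 in each Sev library. EIF2S2P4, of whose 50-base windows 59.5% also occur in EIF2S2, held 76 to 99 counts in control libraries and 78 to 96 in Sev libraries. ANKRD61, which lies opposite an intron of EIF2AK1 with no exonic base in common, fell by 1.38 on the log2 scale (adjusted p = 0.00117, edgeR) while EIF2AK1 was at -0.041. These copies and this neighbour were singled out after their values were seen.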
